A study of Mus musculus with 43 samples.

Results

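The genes described here are 10 genes of prostaglandin and leukotriene metabolism and signalling, Ptgs1, Ptgs2, Ptges, Ptgis, Hpgd, Ptger2, Ptger4, Alox5, Alox15 and Ltc4s. They were chosen by name for their place in these pathways, with earlier results of these data known. All 10 were found by symbol among the 21938 genes of the count table. The data are RNA sequencing counts of the inferior lung lobe in 43 mouse libraries. The study asked, from its title, whether nintedanib has an effect in a mouse model of idiopathic pulmonary fibrosis made with bleomycin. Bleomycin, a DNA-breaking antibiotic, is used to scar the lungs of rodents, and nintedanib is a kinase inhibitor used against pulmonary fibrosis. The 3 groups were control mice that received vehicle (n = 10, "control"), bleomycin mice given the vehicle of nintedanib (n = 16, "bleomycin vehicle") and bleomycin mice given nintedanib (n = 17, "bleomycin nintedanib"). Which vehicle the control mice received is not in the labels, so in comparisons with control the effects of bleomycin and of the vehicle cannot be told apart. They give no dose, route, day, sex, strain, age or allele, and they do not say whether libraries came from separate animals, so a p-value here measures only sample-to-sample spread, which may be technical.

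Prostaglandins and leukotrienes are lipid signals made from arachidonic acid, which phospholipases release from membranes. Cyclooxygenases turn it into prostaglandin H2, from which terminal synthases make prostaglandin E2, prostacyclin and thromboxane, and 15-hydroxyprostaglandin dehydrogenase inactivates the prostaglandins, for which the lung is a main site. 5-lipoxygenase starts the leukotriene branch, which is active in macrophages, mast cells and granulocytes. In the lung, prostaglandin E2 and prostacyclin are known for restraining fibroblasts, and the cysteinyl leukotrienes for contracting airways and for inflammation.

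GENCODE (GRCm38) annotates all 10 genes as protein-coding. Ptgs1 (ENSMUSG00000047250) lies at chr2:36230426-36252272 on the plus strand and Ptgs2 (ENSMUSG00000032487) at chr1:150100031-150108227 on the plus strand. Ptges (ENSMUSG00000050737) lies at chr2:30889471-30929863 on the minus strand and Hpgd (ENSMUSG00000031613) at chr8:56294585-56321043 on the plus strand. The RefSeq promoter table (GRCm38.p6) held 8 of the 10 genes, and the table's start of Ptges lies inside the GENCODE gene. The 250 bases before the RefSeq start are shown for 4 of them, 5′ to 3′ on the gene's strand. Ptgs1 and Ptgs2 are shown because they encode the 2 cyclooxygenases, of which Ptgs1 but not Ptgs2 passed the test in bleomycin vehicle lungs, and Ptges and Hpgd because the gene for a synthase of prostaglandin E2 rose and the gene for its inactivating enzyme fell. The windows are chr2:36230176-36230425 for Ptgs1, chr1:150099781-150100030 for Ptgs2, chr2:30903298-30903547 for Ptges and chr8:56294302-56294551 for Hpgd. Capitals mark matches to GGGCGG (the GC box, in Hpgd as its complement CCGCCC) and TTNNGCAA (the letters of a C/EBP motif), with N for any base.
Ptgs1: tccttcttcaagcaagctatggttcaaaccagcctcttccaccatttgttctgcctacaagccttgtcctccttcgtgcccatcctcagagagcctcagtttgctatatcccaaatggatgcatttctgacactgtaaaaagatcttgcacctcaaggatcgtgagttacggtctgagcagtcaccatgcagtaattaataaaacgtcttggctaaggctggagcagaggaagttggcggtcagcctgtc
Ptgs2: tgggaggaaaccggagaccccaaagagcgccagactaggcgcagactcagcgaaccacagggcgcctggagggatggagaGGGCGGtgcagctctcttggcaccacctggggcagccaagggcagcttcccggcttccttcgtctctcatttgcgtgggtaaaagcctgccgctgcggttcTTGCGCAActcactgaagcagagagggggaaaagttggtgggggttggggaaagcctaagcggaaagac
Ptges: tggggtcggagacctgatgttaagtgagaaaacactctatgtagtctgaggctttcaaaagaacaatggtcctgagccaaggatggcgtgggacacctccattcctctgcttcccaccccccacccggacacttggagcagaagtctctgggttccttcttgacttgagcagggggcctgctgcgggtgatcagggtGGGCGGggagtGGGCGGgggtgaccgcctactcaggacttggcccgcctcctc
Hpgd: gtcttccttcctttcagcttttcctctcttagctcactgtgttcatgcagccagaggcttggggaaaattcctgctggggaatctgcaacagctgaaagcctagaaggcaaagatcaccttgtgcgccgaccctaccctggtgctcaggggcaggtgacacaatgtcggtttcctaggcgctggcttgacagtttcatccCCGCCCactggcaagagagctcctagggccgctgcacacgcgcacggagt
The search on both strands also covered the TATA box (TATAAA), the AP-1 motif (TGANTCA), the cyclic AMP response element (TGACGTCA), the E-box (CACGTG) and the NF-kappaB motif. The Ptgs2 window held 1 GC box and 1 C/EBP match, 69 to 62 bases before the start. The Ptges window held 2 GC boxes, 53 to 48 and 42 to 37 bases before the start, and the Hpgd window held 1, 50 to 45 bases before it. The letters of none of these motifs were in the Ptgs1 window, which had 48% GC against 61.6% in Ptgs2. Of 32851 mouse promoter windows of that length, 32.7% held GGGCGG and 9.56% held TTNNGCAA, so GC boxes are common, and a match describes the letters only.

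Depth was 13138281 to 19111457 counts per library, and 14836 genes passed the filter on low counts, all 10 genes described here among them. Values are given as CPM, counts scaled to a common library total after TMM normalization. Sftpc, the defining gene of alveolar type 2 cells, was at 8788 to 32120 CPM, so every library held lung RNA. The fat cell gene Adipoq reached 1 CPM in 8 of 10 control, 0 of 16 bleomycin vehicle and 5 of 17 bleomycin nintedanib libraries. Libraries fall into 3 number series by name (A, B and C, with 9, 0 and 1 control, 11, 2 and 3 bleomycin vehicle, and 13, 2 and 2 bleomycin nintedanib libraries), and the labels do not say what a series is. Replicate numbers here follow accession order and only name a library. In bulk tissue, fewer cells of a type and less RNA per cell cannot be told apart.

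In bleomycin vehicle lungs against control lungs, Ptgs1, Ptges, Ptger2, Ptger4, Alox5 and Ltc4s rose, and Hpgd and Ptgis fell. The increases ran from 1.57-fold for Ltc4s to 2.69-fold for Ptgs1. Ptgs2 and Alox15 did not pass the test. So 8 of 10 genes passed an adjusted p threshold of 0.05 (edgeR's quasi-likelihood test with Benjamini-Hochberg adjustment over all 14836 genes), against 57.9% of all genes tested. Of the 10 genes 6 were higher, against 29.5% of all genes, and 2 were lower, against 28.3%. Their median log2 fold change was 0.68, and that of all genes tested was -0.01. In 2 of 10 genes, Ptgs1 and Ptger2, the libraries of the groups did not overlap at all, against 5.54% of all genes.

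**Figure D1:**
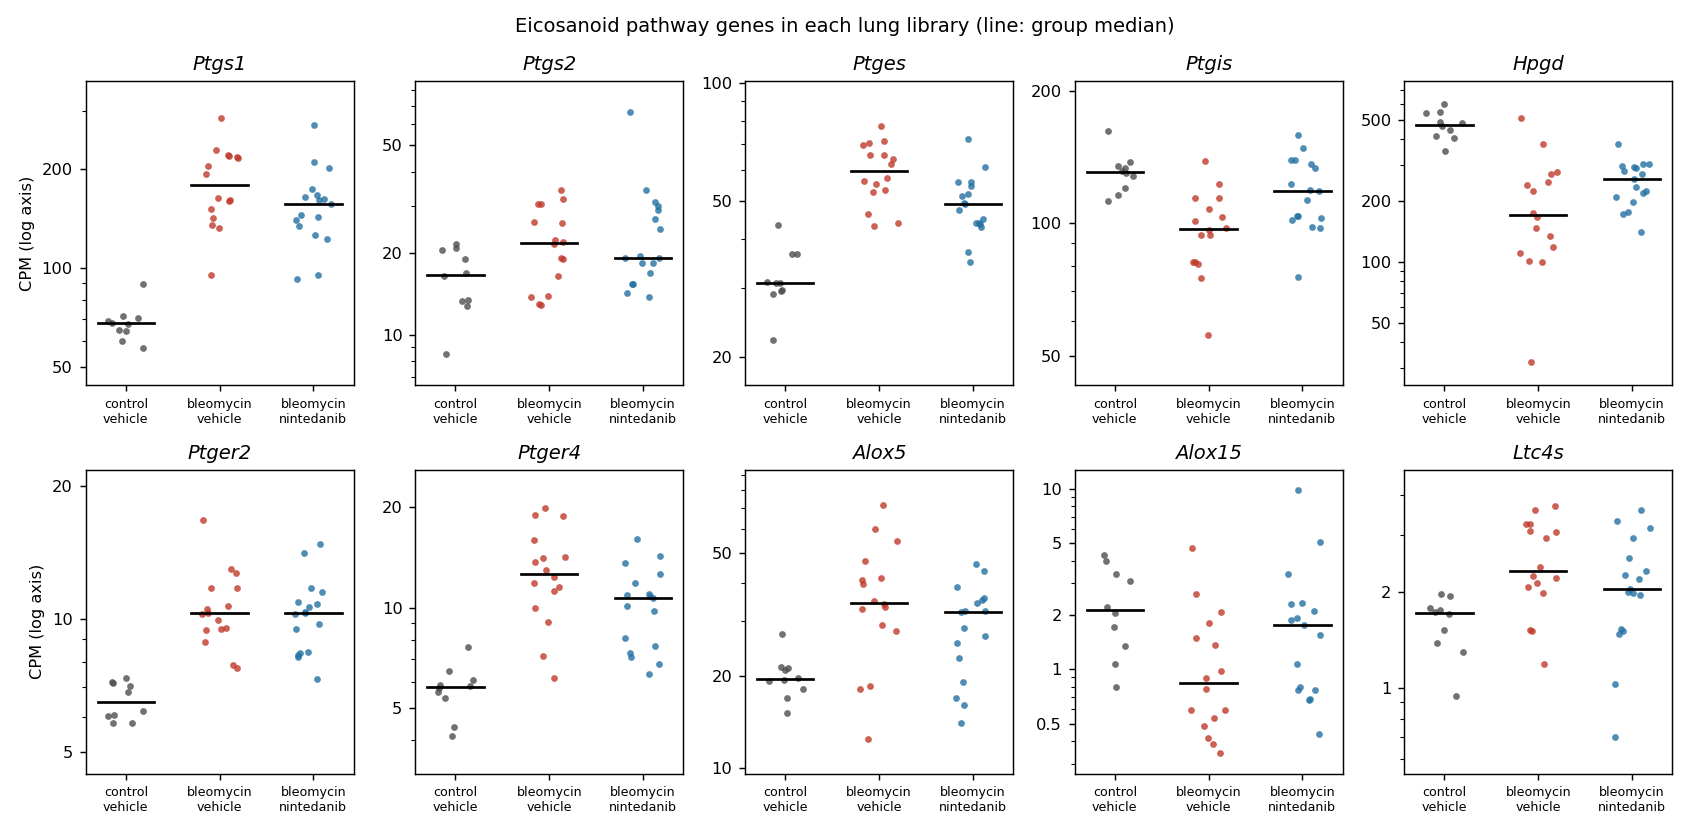
Level of each of the 10 genes in every library, in CPM on a log axis with its own range in each panel. Each point is 1 library, in 10 control, 16 bleomycin vehicle and 17 bleomycin nintedanib libraries, and the line is the group median. For Ptgs1 every bleomycin library lies above the highest control library (89.5 CPM), and for Hpgd most lie below the lowest (350 CPM).

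Ptgs1 encodes cyclooxygenase 1, the form made in most tissues without stimulation. Its level was 57.2 CPM at the lowest, 67.8 at the median and 89.5 at the highest in control libraries, and 95.3, 178.7 and 285.7 CPM in bleomycin vehicle libraries. Every one of the 16 bleomycin vehicle libraries was above the highest control library. The log2 fold change was 1.43 ± 0.14 (SE; edgeR adjusted p = 7.9e-11), and it was 1.41 within number series A. The spread between libraries was also wider after bleomycin, with a coefficient of variation of 26.4% against 12.8%.

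Ptgs2 encodes cyclooxygenase 2, the form induced by inflammatory signals. Control libraries held 8.49, 16.7 and 21.6 CPM (lowest, median, highest), and bleomycin vehicle libraries 12.9, 21.9 and 34.2 CPM. The ranges overlapped, with 9 of 16 bleomycin vehicle libraries above the highest control library. The log2 difference of 0.43 ± 0.21 did not pass the test (edgeR adjusted p = 0.0717). It did pass with the 2 groups fitted alone (adjusted p = 0.0386) and without bleomycin nintedanib replicate 2, which enters through the spread shared by the 3 comparisons (adjusted p = 0.032). As a description chosen after the values were seen, the per-length level of Ptgs1 was 4.83 times that of Ptgs2 in the median control library (range 3.13 to 8.91) and 9.85 times in the median bleomycin vehicle library (range 5.03 to 20.9). The ranges of this ratio overlapped, and it was not tested.

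Ptges encodes the microsomal synthase that makes prostaglandin E2 from prostaglandin H2. It stood at 22.04, 30.9 and 43.4 CPM (lowest, median, highest) in control libraries and at 43.1, 59.7 and 77.9 CPM in bleomycin vehicle libraries. In 15 of 16 bleomycin vehicle libraries it was above the highest control library, and it rose by a log2 fold change of 0.90 ± 0.10 (edgeR adjusted p = 1.42e-09). Ptgis encodes prostacyclin synthase and moved the other way. Its level was 112.4, 130.7 and 162.1 CPM in control libraries and 55.7, 97.2 and 138.8 CPM in bleomycin vehicle libraries, of which 12 of 16 were below the lowest control library. It fell by 0.42 ± 0.10 on the log2 scale (edgeR adjusted p = 0.000494). Without the libraries that hold Adipoq, which leaves 2 control libraries, the log2 difference of Ptgis was -0.53 and lost its call (adjusted p = 0.0619).

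Hpgd, which encodes the enzyme that oxidises and inactivates prostaglandins, had the largest decrease of the 10 genes. Control libraries held 350, 471.4 and 596.5 CPM (lowest, median, highest), and bleomycin vehicle libraries 32.1, 170.5 and 507.2 CPM. Of the 16 bleomycin vehicle libraries, 14 were below the lowest control library, while replicate 13 stood at the high end, within the control range. The log2 fold change was -1.23 ± 0.23 (edgeR adjusted p = 1.2e-05), -1.43 within number series A. The coefficient of variation of Hpgd among bleomycin vehicle libraries was 59.2%, against 15.7% among control libraries, and of the 10 genes Alox15 alone varied more (91.1%). The library lowest in Hpgd, replicate 4, was also the lowest of the group in the summed level of 5 capillary endothelium markers (972.9 CPM), and replicate 13 the highest (2544 CPM).

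The 5 capillary endothelium markers (Cdh5, Pecam1, Gpihbp1, Kdr and Ednrb) summed to 2518 to 3222 CPM in control libraries and 972.9 to 2544 CPM in bleomycin vehicle libraries, and 5 of 5 fell. With group means removed, log2 Hpgd and the log2 marker sum had a Pearson r of 0.826 and a Spearman rho of 0.756 over 43 libraries, and r was 0.784 without the 2 libraries farthest from the median marker sum. Within groups r was 0.902 in bleomycin vehicle, 0.756 in bleomycin nintedanib and -0.132 in control libraries, and the difference between groups in r was not tested. The relation was not particular to endothelium. With the mean centred log2 level of a list in place of its sum, r of Hpgd was 0.896 for capillary endothelium and 0.814 for alveolar fibroblasts. It was 0.684 for alveolar type 1, 0.669 for platelet and 0.522 for alveolar type 2 markers. The lowest was -0.38, for monocyte-derived macrophages. Depth and cell makeup differ between libraries and act on both measures, and the part of endothelial RNA in the fall of Hpgd was not tested.

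**Figure D2:**
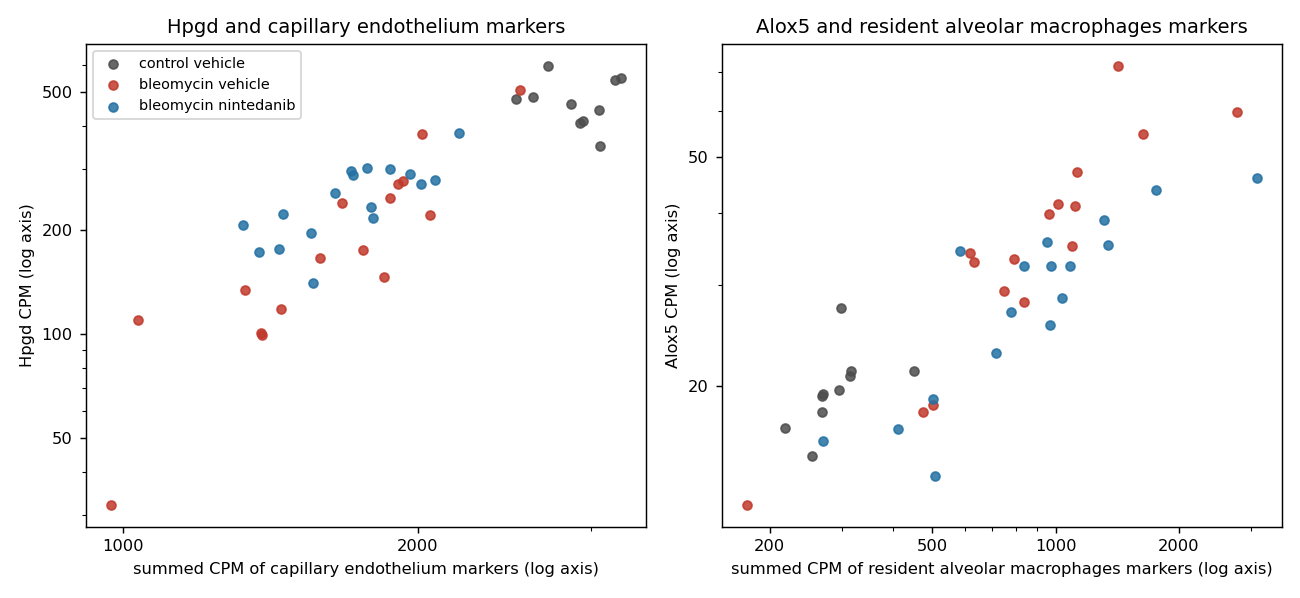
Left, Hpgd against the summed level of 5 capillary endothelium markers; right, Alox5 against the summed level of 5 resident alveolar macrophage markers, all in CPM on log axes. Each point is 1 of the 43 libraries, coloured by group. Among bleomycin libraries both genes are higher where the marker sum is higher, and bleomycin vehicle replicate 4 is the lowest point on the left, at 32.1 CPM of Hpgd.

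The receptors of prostaglandin E2 that raise cyclic AMP, EP2 and EP4, are encoded by Ptger2 and Ptger4. Ptger2 was at 5.81, 6.50 and 7.35 CPM (lowest, median, highest) in control libraries and at 7.74, 10.3 and 16.7 CPM in bleomycin vehicle libraries. All 16 bleomycin vehicle libraries were above the highest control library, and the log2 fold change was 0.70 ± 0.11 (edgeR adjusted p = 3.9e-07). Ptger4 was at 4.13, 5.78 and 7.63 CPM in control libraries and at 6.17, 12.7 and 19.97 CPM in bleomycin vehicle libraries. There 14 of 16 bleomycin vehicle libraries were above the highest control library, and Ptger4 rose by 1.19 ± 0.16 on the log2 scale (edgeR adjusted p = 7.52e-08). Both receptors were highest in bleomycin vehicle replicate 4, the library lowest in Hpgd.

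Alox5 encodes 5-lipoxygenase, which makes the first leukotriene. It was at 15.2, 19.5 and 27.4 CPM (lowest, median, highest) in control libraries and at 12.5, 34.5 and 71.8 CPM in bleomycin vehicle libraries. The groups overlapped: 13 of 16 bleomycin vehicle libraries were above the highest control library, and 1, replicate 10, was below the lowest. The log2 fold change was 0.91 ± 0.20 (edgeR adjusted p = 0.000217). Without the libraries that hold Adipoq it was 1.04 with no call (adjusted p = 0.0604). Ltc4s encodes leukotriene C4 synthase, which joins leukotriene A4 to glutathione, and was among the lower genes of the set, at 17 to 33 counts per control library. Its level was 0.94, 1.71 and 1.97 CPM in control and 1.19, 2.31 and 3.70 CPM in bleomycin vehicle libraries, with 13 of 16 above the highest control library. Ltc4s rose by 0.65 ± 0.20 on the log2 scale (edgeR adjusted p = 0.00488), but the value was 0.50 with no call within number series A (adjusted p = 0.0604) and 0.46 without the libraries that hold Adipoq (adjusted p = 0.332).

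Alox15 encodes the lipoxygenase of alternatively activated macrophages and eosinophils, and had few counts. It was at 0.80, 2.13 and 4.29 CPM (lowest, median, highest) in control libraries and at 0.34, 0.83 and 4.72 CPM in bleomycin vehicle libraries. Of the bleomycin vehicle libraries 8 of 16 were below the lowest control library, and replicate 8 was above the highest. The log2 difference of -0.92 ± 0.42 did not pass the test (edgeR adjusted p = 0.056). It lay close to the threshold, and 5 of 10 alternatives gave a call. The adjusted p was 0.0145 with limma-voom, 0.0448 with DESeq2 and, with edgeR, 0.0339 with the 2 groups fitted alone. It was 0.0435 with library totals and 0.0494 with number series as covariate, and at most 0.276 over all alternatives. Of 43 fits that left out 1 library 10 gave a call, the lowest of them without bleomycin vehicle replicate 8 (log2 fold change -1.26, adjusted p = 0.00757).

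Levels of macrophage markers are set here beside those of the leukotriene genes Alox5 and Ltc4s. The 5 resident alveolar macrophage markers (Marco, Chil3, Fabp1, Krt79 and Ear1) summed to 218.1 to 450.1 CPM in control libraries and to 176.1 to 2780 CPM in bleomycin vehicle libraries, although only 2 of 5 (Marco and Chil3) rose and 2 (Fabp1 and Krt79) fell. Most of the sum was Chil3, with a median of 239.8 CPM in control and 854.6 CPM in bleomycin vehicle libraries, so relations with the sum are mainly with Chil3. With group means removed, log2 Alox5 and the log2 marker sum had an r of 0.875 and a rho of 0.854 over 43 libraries, and for Ltc4s r was 0.723 and rho 0.731. Without the 2 libraries farthest from the median marker sum, r was 0.845 for Alox5 and 0.699 for Ltc4s. Within control, bleomycin vehicle and bleomycin nintedanib libraries r was 0.522, 0.917 and 0.86 for Alox5. It was 0.118, 0.705 and 0.82 for Ltc4s. With the mean centred log2 level of the list in place of its sum, r was 0.743 for Alox5, 0.756 for Ltc4s and -0.224 for Alox15. For the same genes in that order, r was 0.536, 0.411 and -0.165 with the monocyte-derived macrophage list. It was -0.498, -0.661 and 0.553 with the mast cell list, and 0.271, 0.0199 and 0.469 with the eosinophil list. Bleomycin vehicle replicate 10, the lowest of all libraries in Alox5, was also the lowest of all in the marker sum. The 5 monocyte-derived macrophage markers were Trem2, Gpnmb, Spp1, Ccr2 and Ms4a7, and 4 of 5 rose. They summed to 105.2 to 188.7 CPM in control and 909.1 to 3668 CPM in bleomycin vehicle libraries. In the latter most of the sum (median 2214 CPM) was Spp1 (median 1670 CPM). With group means removed, log2 Ptgs1 had an r of 0.721 with the log2 sum, and 0.666 without the 2 libraries farthest from its median. Within groups r was 0.43 in control, 0.782 in bleomycin vehicle and 0.69 in bleomycin nintedanib libraries. With the mean centred log2 level of the list r was 0.561, and with that of the club cell list it was -0.753. The 5 eosinophil markers summed to 9.998 to 23.5 CPM in control and 7.61 to 42.6 CPM in bleomycin vehicle libraries, mostly from Siglecf (median 10.7 and 20.5 CPM), which alveolar macrophages also make. Of the 3 that were tested Siglecf rose, Il5ra fell and Ccr3 did not pass, while the defining gene Epx was at 0 in the median library of each group and at most at 0.24 CPM. The mast cell markers summed to at most 8.40 CPM in control and 5.61 CPM in bleomycin vehicle libraries. The part of these cells in the changes was not tested.

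The comparison of nintedanib with vehicle in bleomycin mice asks whether treatment changed these genes. Ptges was lower and Ptgis higher with nintedanib, both by small amounts, and the other 8 genes did not pass the test. So 2 of 10 genes passed, against 7.31% of all genes tested, with 1 higher against 3.21% and 1 lower against 4.1%. The median log2 fold change of the 10 genes was -0.13, and that of all genes tested was -0.002. In none of the 10 genes were the groups free of overlap, nor in any other of the 14836 genes tested.

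**Figure D3:**
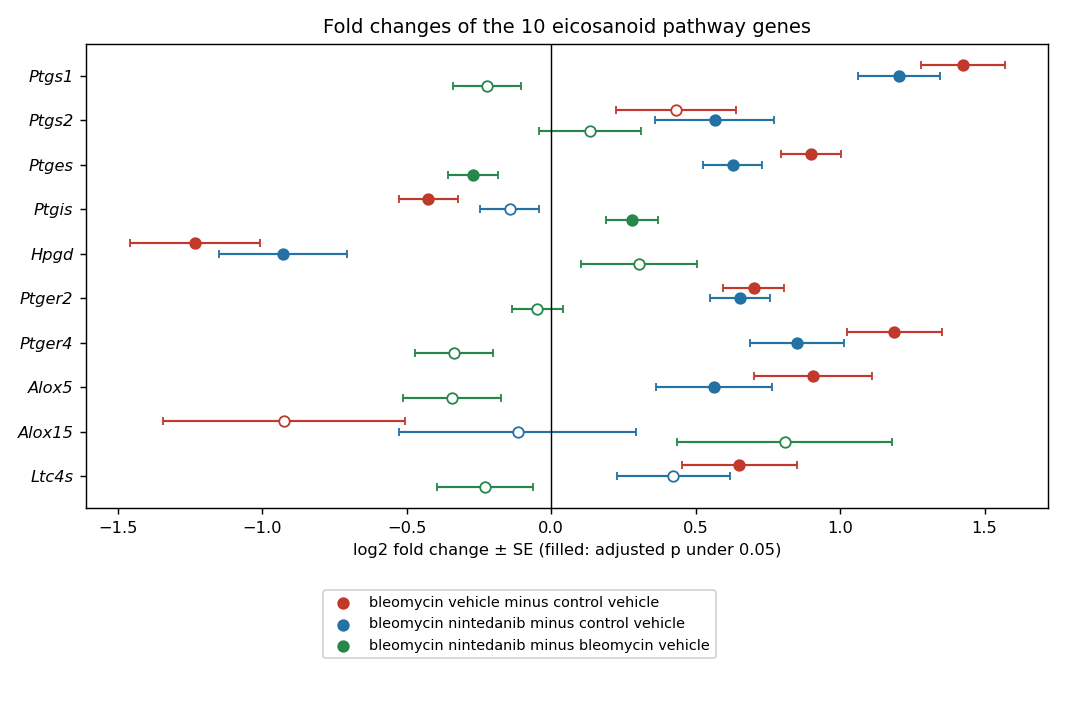
Log2 fold change (edgeR, with its SE as the bar) of the 10 genes in 3 comparisons: bleomycin vehicle minus control, bleomycin nintedanib minus control, and bleomycin nintedanib minus bleomycin vehicle. Filled points passed an adjusted p of 0.05. In the last comparison the filled points are Ptges at -0.27 and Ptgis at 0.28, and the first and second comparison share the control libraries.

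Ptges was at 34.9, 49.1 and 72.2 CPM (lowest, median, highest) with nintedanib, against 43.1, 59.7 and 77.9 CPM with vehicle. In 15 of 17 nintedanib libraries it was below the vehicle median, but only 3 were below the lowest vehicle library. The log2 fold change was -0.27 ± 0.086 (edgeR adjusted p = 0.0451). Ptgis was at 75.5, 118.6 and 158.9 CPM with nintedanib, against 55.7, 97.2 and 138.8 CPM with vehicle, and 16 of 17 nintedanib libraries were above the vehicle median. It was higher by 0.28 ± 0.089 on the log2 scale (edgeR adjusted p = 0.0453).

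Both calls sat at the threshold. Of 43 fits that left out 1 library, 19 lost the call of Ptges, 11 of them without a nintedanib and 8 without a vehicle library, with adjusted p up to 0.0827. For Ptgis 22 of 43 lost it, 8 without a nintedanib, 8 without a vehicle and 6 without a control library, with adjusted p up to 0.0791. Neither passed with no filter on low counts (0.0533 for Ptges and 0.0592 for Ptgis) or with the 2 groups fitted alone (0.0557 and 0.086), and within number series A the adjusted p of Ptges was 0.0908. The direction was the same in all of these fits. Without the 5 nintedanib libraries (and 8 control libraries) that hold Adipoq, adjusted p was 0.0535 for Ptges and 0.15 for Ptgis.

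Of the 8 genes with no call, Hpgd was at 140.6, 255.3 and 380.8 CPM with nintedanib (lowest, median, highest), narrower than with vehicle and above the vehicle median in 16 of 17 libraries, with a log2 difference of 0.30 ± 0.20 (edgeR adjusted p = 0.349). The nintedanib libraries lay wholly within the vehicle range. Ptgs1 was at 92.8, 156.9 and 272.8 CPM and differed by -0.22 ± 0.12 (adjusted p = 0.24). Ptgs2 was at 13.8, 19.3 and 66.5 CPM and differed by 0.13 ± 0.18 (adjusted p = 0.678). Its highest value was replicate 2, which stood apart from the next highest library, and without it the difference was -0.031. Ptger2, at 7.32, 10.3 and 14.8 CPM, differed by -0.048 ± 0.088 (adjusted p = 0.78), and this sign turned without the libraries that hold Adipoq (0.0083) and without bleomycin vehicle replicate 4 (0.0044).

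Ptger4 was at 6.33, 10.7 and 16.1 CPM with nintedanib and differed from vehicle by -0.34 ± 0.13 on the log2 scale (edgeR adjusted p = 0.112). Without bleomycin vehicle replicate 10, the library lowest in Ptger4, it passed (log2 difference -0.39, adjusted p = 0.0435). Alox5 was at 13.99, 32.3 and 46.0 CPM, within the vehicle range, and differed by -0.34 ± 0.17 (adjusted p = 0.205). Ltc4s was at 0.70, 2.04 and 3.59 CPM and differed by -0.23 ± 0.17 (adjusted p = 0.405). Alox15 was at 0.44, 1.76 and 9.80 CPM, with the highest value in replicate 1, which held adipocyte and the highest mast cell marker levels of its group (104.5 and 14.5 CPM in sum). The part of these cells in the level of Alox15 was not tested. The log2 difference of Alox15, 0.81 ± 0.37, did not pass (edgeR adjusted p = 0.173). Its size was unstable: it ran from 0.066 to 0.81 over the 10 alternatives, none of which called it (adjusted p 0.142 to 0.943). Over the 43 fits that left out 1 library it ran from 0.45 to 1.11.

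Against control, bleomycin nintedanib lungs had higher Ptgs1, Ptgs2, Ptges, Ptger2, Ptger4 and Alox5 and lower Hpgd. That is 7 of 10 genes, against 53.2% of all genes tested, with 6 higher against 28.1% and 1 lower against 25.1%. For Ptgs1 all 17 nintedanib libraries were above the highest control library, 1 of 10 genes with no overlap against 7.37% of all genes. This comparison shares its control libraries with that of bleomycin vehicle, so the values are set side by side and are not independent. The log2 fold change against control, with vehicle and then with nintedanib, was 1.43 and 1.203 for Ptgs1 (adjusted p = 3.07e-09 with nintedanib). It was 0.90 and 0.63 for Ptges (adjusted p = 1.81e-06) and -1.23 and -0.93 for Hpgd (adjusted p = 0.000549). It was 0.70 and 0.65 for Ptger2 (adjusted p = 1.46e-06), and 1.19 and 0.85 for Ptger4 (adjusted p = 2.5e-05).

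For Alox5 the pair was 0.91 and 0.56 (edgeR adjusted p = 0.0165 with nintedanib), and limma-voom did not call the second (adjusted p = 0.0581). Ptgs2 passed with nintedanib, at 0.57 ± 0.21 (adjusted p = 0.0196), with 7 of 17 libraries above the highest control library. That call rested on single libraries: it was 0.40 without nintedanib replicate 2 (adjusted p = 0.0501) and 0.49 without control replicate 7 (adjusted p = 0.051). Ptgis (-0.14 ± 0.10, adjusted p = 0.233), Alox15 (-0.12 ± 0.41, adjusted p = 0.829) and Ltc4s (0.42 ± 0.20, adjusted p = 0.0663) did not pass. Ltc4s passed without nintedanib replicate 1 (0.48, adjusted p = 0.0234) or replicate 7 (0.47, adjusted p = 0.036). These held the lowest levels of Ltc4s in their group (0.70 and 1.03 CPM). None of the 10 alternatives called Ltc4s (adjusted p 0.0662 to 0.522), the fit without the libraries that hold Adipoq among them. With no library that holds Adipoq, which leaves 2 control libraries, 5 genes in the vehicle and 3 in the nintedanib comparison with control passed. In the latter Hpgd (-1.17, adjusted p = 0.0575), Ptger4 (0.98, 0.0513), Alox5 (0.79, 0.165) and Ptgs2 (0.69, 0.281) lost their calls, each with a log2 difference larger than in all libraries.

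The order of the 10 genes, compared per kilobase of exon, was led by Hpgd in every group. In control libraries Hpgd was at 281.2 ± 44.2 CPM per kilobase (SD, n = 10), followed by Ptgis at 50.9 ± 5.397, Ptgs1 at 17.6 ± 2.25 and Ptges at 8.14 ± 1.46. These 4 levels did not overlap between neighbours over the control libraries, apart from the lower side of Ptges, which overlapped with Alox5 at 4.85 ± 0.80 CPM per kilobase. Ptgs2 (3.57 ± 0.94), Ltc4s (1.58 ± 0.31), Ptger2 (1.26 ± 0.12), Alox15 (0.97 ± 0.50) and Ptger4 (0.86 ± 0.15) followed, each overlapping with its neighbour. In bleomycin vehicle libraries Ptgs1, at 47.1 ± 12.4 CPM per kilobase (n = 16), came before Ptgis at 37.96 ± 7.87, with overlapping ranges, and Alox15 was last at 0.51 ± 0.47. Hpgd stood there at 119.8 ± 70.9 CPM per kilobase, and its range overlapped with that of Ptgs1. With nintedanib Ptgis at 46.1 ± 8.53 (n = 17) again came before Ptgs1 at 40.4 ± 11.1, also with overlapping ranges.

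A per-length ratio within each library, chosen after the values were seen, shows the inactivating enzyme beside the synthase. Hpgd was 35.5 times Ptges in the median control library (range 18.9 to 63.2), 5.78 times in the median bleomycin vehicle library (range 1.31 to 26.9) and 11.8 times in the median nintedanib library (range 6.02 to 19.1). The control and bleomycin vehicle ranges overlapped. Ptgis was 6.74, 2.54 and 3.40 times Ptges in the median library of the same groups. These ratios were not tested.

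Reads of overlapping genes limit some of these levels. Exons of Ptgs1, Ptgis, Ptger2 and Ltc4s overlap with genes annotated on the other strand, and those of Ptger4 with the protein-coding gene Ttc33 on the other strand. Of the other pathway genes named below, Tbxas1, Ptgfr, Alox5ap and Dpep2 overlap with genes on the other strand, and Dpep2 also with a second gene of the same symbol on its own strand. The library kit keeps strand, but the strand setting of the counting is not given in the sources used here, so reads of such pairs may be mixed and these levels are uncertain.

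Other genes of the same pathways were taken from a list of 45 genes, of which 39 passed the filter on low counts. In bleomycin vehicle lungs 16 of 39 rose and 7 of 39 fell, with a median log2 fold change of 0.06. Of all genes tested 29.5% were higher and 28.3% lower, with a median of -0.01, and the counts by role below are to be read against the same shares. The 2 largest increases were terminal synthases: Tbxas1, the thromboxane synthase, rose by 2.08 ± 0.18 on the log2 scale (edgeR adjusted p = 9.86e-13), and Hpgds, the haematopoietic prostaglandin D synthase, by 1.98 ± 0.15 (adjusted p = 1.46e-14). Tbxas1 was at 6.91, 9.40 and 13 CPM (lowest, median, highest) in control libraries and at 19.5, 41.95 and 57.7 CPM in bleomycin vehicle libraries, and Hpgds at 1.70, 3.05 and 3.50 CPM and at 7.61, 10.8 and 18.7 CPM. Neither gene's groups overlapped.

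**Figure D4:**
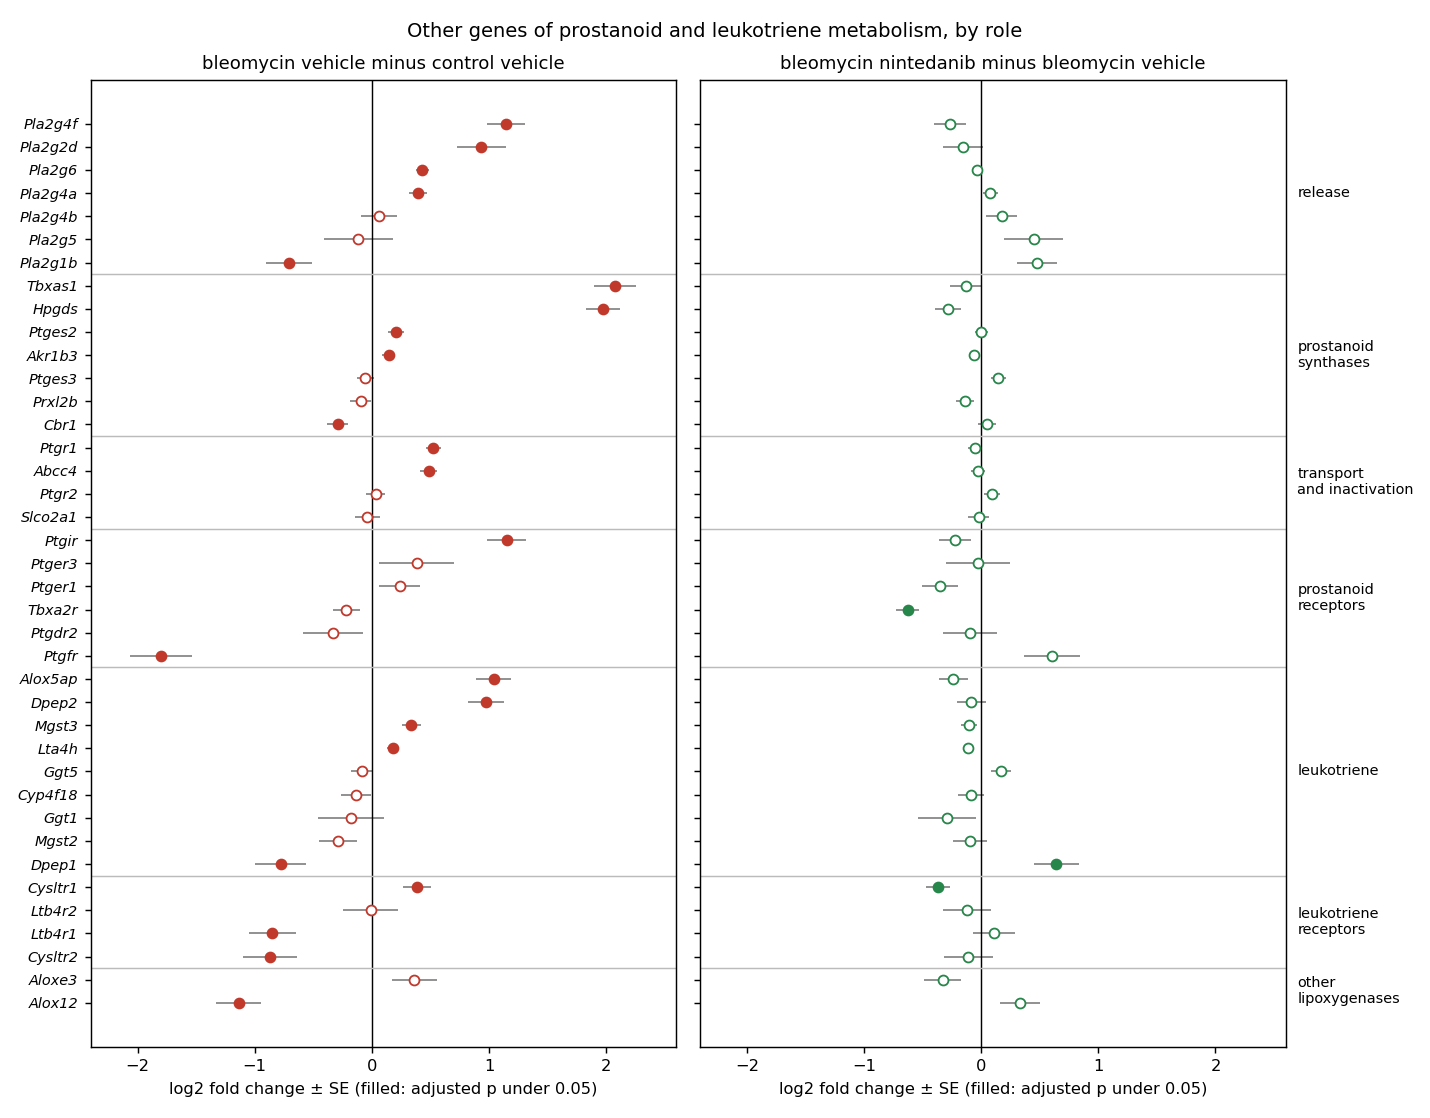
Log2 fold change (edgeR, with its SE as the bar) of the 39 other pathway genes that passed the filter, grouped by role from release of arachidonic acid to receptors. The left panel is bleomycin vehicle minus control, the right panel bleomycin nintedanib minus bleomycin vehicle, and filled points passed an adjusted p of 0.05. The left panel has 23 filled points of 39, led by Tbxas1 and Hpgds, and the right panel 3, Tbxa2r, Cysltr1 and Dpep1.

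Among the genes for release of arachidonic acid, 4 of 7 rose and 1 fell. Pla2g4f, a cytosolic phospholipase A2, rose by 1.15 ± 0.16 (adjusted p = 1.25e-07) and Pla2g1b, a secreted one, fell by 0.71 ± 0.19 (adjusted p = 0.00181). Of 7 prostanoid synthases 4 rose and 1 fell. Of 4 genes for transport and inactivation 2 rose and none fell. Of 6 prostanoid receptors, Ptgir, the prostacyclin receptor, rose by 1.15 ± 0.17 (adjusted p = 1.63e-07), while Ptgfr, the receptor of prostaglandin F2alpha, fell by 1.80 ± 0.26 (adjusted p = 2.08e-07). Ptgfr was at 13.4 to 23.2 CPM in control and at 0.89 to 10.5 CPM in bleomycin vehicle libraries, with no overlap.

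In the leukotriene branch 4 of 9 genes rose and 1 fell. Alox5ap, which presents arachidonic acid to 5-lipoxygenase, rose by 1.04 ± 0.15 (edgeR adjusted p = 1.91e-07), as did Alox5 itself. Dpep2, a dipeptidase that can convert leukotriene D4, rose by 0.97 ± 0.15 (adjusted p = 5.79e-07), and Dpep1, another such dipeptidase, fell by 0.78 ± 0.22 (adjusted p = 0.00223). Of 4 leukotriene receptors 1 rose and 2 fell: Ltb4r1, the high-affinity leukotriene B4 receptor, by 0.85 ± 0.20 (adjusted p = 0.00036), and Cysltr2, a cysteinyl leukotriene receptor, by 0.87 ± 0.23 (adjusted p = 0.00148). Alox12, the platelet lipoxygenase, fell by 1.14 ± 0.19 (adjusted p = 2.83e-06). Of 5 platelet markers 4 were tested and all 4 fell, with a median log2 fold change of -1.30. They were Gp9 (-1.58), Ppbp (-1.42), Itga2b (-1.18) and Pf4 (-0.39, adjusted p = 0.0077), and the part of platelet RNA in Alox12 was not tested. Without the libraries that hold Adipoq, Alox12, Cysltr2, Ltb4r1 and Dpep1 lost their calls, with log2 differences of -0.81 (adjusted p = 0.109), -0.96 (0.0757), -0.82 (0.107) and -0.84 (0.148).

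With nintedanib against vehicle, 1 of the 39 genes was higher and 2 were lower, near the shares of all genes tested (3.21% and 4.1%). Tbxa2r, the thromboxane receptor, was at 4.47, 6.99 and 11.9 CPM (lowest, median, highest) with vehicle and at 3.06, 4.71 and 5.68 CPM with nintedanib. All 17 nintedanib libraries were below the vehicle median, and the log2 fold change was -0.63 ± 0.099 (edgeR adjusted p = 9.25e-05). Its adjusted p was at most 0.00211 in the alternatives tried. Cysltr1, a cysteinyl leukotriene receptor, differed by -0.37 ± 0.10 (adjusted p = 0.0228) and was 0.39 ± 0.12 higher in bleomycin vehicle than in control libraries. Dpep1 differed by 0.64 ± 0.19 (adjusted p = 0.033), from a median of 60.0 CPM with vehicle to 111 CPM with nintedanib. Without the libraries that hold Adipoq, neither Cysltr1 (-0.38, adjusted p = 0.0657) nor Dpep1 (0.63, adjusted p = 0.108) passed, and Dpep1 lost its call in 9 of 43 fits that left out 1 library, 7 of them a vehicle and 2 a nintedanib library.

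Against control, 13 of 39 genes were higher and 8 lower with nintedanib, where 28.1% and 25.1% of all genes tested were. The log2 fold change was 1.95 for Tbxas1, 1.69 for Hpgds, 0.93 for Ptgir, 0.89 for Dpep2, 0.88 for Pla2g4f and 0.80 for Alox5ap. It was -1.198 for Ptgfr, -0.98 for Cysltr2, -0.84 for Tbxa2r, -0.81 for Alox12, -0.74 for Ltb4r1 and -0.38 for Mgst2, a microsomal glutathione transferase. For Tbxa2r no nintedanib library overlapped with the controls (6.69 to 11.5 CPM). Mgst2 was near the threshold (edgeR adjusted p = 0.0449) and lost its call in 12 of 43 fits that left out 1 library, 10 of them a nintedanib and 2 a control library, and within number series A (adjusted p = 0.0832). Without the libraries that hold Adipoq, which leaves 2 control libraries, the calls of Ptgfr (-1.15, adjusted p = 0.097), Cysltr2 (-1.06, 0.0583), Alox12 (-0.58, 0.298), Ltb4r1 (-0.98, 0.0627) and Mgst2 (-0.57, 0.193) were lost with the same sign. So were those of Pla2g4f (0.78, adjusted p = 0.0762) and Alox5ap (0.70, 0.0738).

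Genes that varied most like each of the 10 genes across libraries are given as a description, from log2 CPM with group means removed over 43 libraries, whose depth and cell makeup act on all genes of a library at once. For Ptgs1 they were Sorcs2 (r = 0.896), Ctps (0.881) and Iqgap3 (0.872). Within control libraries r could differ, here and for genes below: for these 3 it was -0.231, 0.333 and 0.729. Those of Ptgs2 were lower in r, with Fos, an immediate early gene, at 0.679, Prkaa2 at 0.678 and Tob1 at 0.661. Ptges varied with Lrg1, a secreted acute-phase glycoprotein (r = 0.788), Il4ra (0.763) and Socs3, an inhibitor of cytokine signalling (0.735). For Ptgis the genes were Boc (0.795), Crim1 (0.766) and the water channel Aqp1 (0.755).

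Hpgd had the closest match of all 10 genes, Zfp641 (r = 0.949), then Ehd4 (0.945) and Tmem100 (0.936). These r were 0.981, 0.976 and 0.971 in bleomycin vehicle libraries alone, and 0.849, 0.829 and 0.258 in control libraries alone. Ptger2 varied with Rab8b (0.759), Fblim1 (0.739) and Rab31 (0.735), and Ptger4 with the kinetochore gene Dsn1 (0.822), Tmem26 (0.82) and the condensin gene Ncapd2 (0.81). The genes closest to Alox5 were the macrophage receptors Siglec1 (0.925) and Mrc1 (0.914), with Plet1 (0.918) between them. Those of Ltc4s were the macrophage genes Marco (0.748) and Chil3 (0.716), with Renbp (0.741) between them. For Alox15 they were Bves (0.633), Ndufaf3 (0.591) and Nenf (0.589). Among the 10 genes themselves the highest r was that of Alox5 with Ltc4s (0.645), followed by Alox5 with Ptgs1 (0.641), Ptgs1 with Ptges (0.598) and Ptgis with Hpgd (0.538).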

How the data were processed

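RNA of the inferior lung lobe was measured in 43 libraries (polyA RNA, directional kit, single-end reads, per the labels' protocols). Raw counts per gene, in 1 table, are what the authors deposited. The submitters' processing notes name the GRCm38 build, STAR 2.7.0f and R 3.6.0. How reads were counted (tool, annotation, strand setting) is not given in the sources used here. No column of another sample was in the table (0 columns left unused). Groups came from the labels' treatment field.

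Identifiers were matched to symbols with GENCODE M21, all 21938 of them. Genes were kept with filterByExpr by group (minimum count 10, minimum total 15). The test was edgeR 4.0.16's quasi-likelihood F test in R 4.3.3, two-sided, with TMM factors and 1 coefficient per group over all 43 libraries, which gives the 3 comparisons a common estimate of spread. Benjamini-Hochberg adjustment of the p-values ran over all 14836 tested genes. Log2 CPM used a prior count of 2, and levels between genes were divided by union exon length. No pair of libraries within a group (301 pairs) agreed within sampling noise, with a chi-square per degree of freedom of at least 5.36. The script was also run on simulated counts in which only the bleomycin nintedanib group was changed, unlike these data. That run is not used as support here.

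The alternatives were RLE factors, library totals, limma-voom (limma 3.58.1), DESeq2 1.42.0, no filter, at least 1 CPM in 10 libraries, only the 2 groups compared, number series as covariate, number series A only, no library with at least 1 CPM of Adipoq, and each library left out in turn. The genes, the pathway list, the marker lists and the tests were chosen with earlier results of these data known. Named are all 10 genes, pathway genes past the threshold with nintedanib against vehicle, up to 6 with the largest rise and 6 with the largest fall against control (average log2 CPM of at least 0), and the 3 genes most correlated with each of the 10. The marker lists not described above were also summed: in bleomycin vehicle against control, 4 of 5 alveolar fibroblast, 3 of 3 club cell, 2 of 3 ciliated, 2 of 5 neutrophil, 2 of 4 smooth muscle and 4 of 4 tested adipocyte and platelet markers fell, 2 of 4 alveolar type 2 markers rose, and the alveolar type 1 and adventitial fibroblast lists each had 1 higher and 1 lower of 4, eosinophils 1 and 1 of 3 tested, and mesothelium 1 higher of 4. All 5 tested mast cell markers fell.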

Additional observations from a re-analysis of the deposited data

Results flagged for a closer look

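The 10 control libraries were examined once for each of 25 named genes, and for 4 genes a library lay far from the others. Chance gives such a library in about 1 in 20 independent groups. The same libraries serve all 25 genes here, so whether 4 is more than chance gives was not tested. Control replicate 2 stood at a log2 CPM of 6.49 for Ptgs1, against 5.84 to 6.16 in the other control libraries, and was still below every bleomycin library. Control replicate 5 stood at 3.81 for Ptgir, against 2.99 to 3.43 in the others. Control replicate 4 was low for Cysltr2, at 0.030 against 1.16 to 2.15, and control replicate 8 was low for Ltb4r1, at 1.603 against 1.84 to 2.05. Groups of more than 10 libraries were not examined in this way.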

How the results depend on the processing

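The count of the 10 genes past the threshold was 8 in bleomycin vehicle against control, 2 in nintedanib against vehicle and 7 in nintedanib against control. Leaving out 1 library at a time gave 8 to 9, 0 to 3 and 6 to 8. Without the libraries that hold Adipoq, which leaves 2 control, 16 bleomycin vehicle and 12 bleomycin nintedanib libraries, the counts were 5, 0 and 3, with fewer libraries in the fit. Nintedanib against vehicle gave 0 calls with no filter on low counts, 0 with only the 2 groups compared and 1 within number series A, all with edgeR, and the cause was not tested. At an unadjusted p under 0.05 these edgeR fits gave 5, 4 and 3 of the 10 genes, the fit without the Adipoq libraries 2, and limma-voom and DESeq2 4 and 5. Signs turned in nintedanib against vehicle, where neither gene was called: Ptger2 was at 0.0083 without the Adipoq libraries and at 0.0044 without bleomycin vehicle replicate 4, and Ptgs2 at -0.031 without bleomycin nintedanib replicate 2. Over 57 results for single genes under 10 alternatives, 32 kept their direction and side of the threshold throughout, 32 of 570 values lost a call and 6 gained one. Calls over all genes in nintedanib against vehicle were 1084, and 640 with only the 2 groups compared or 525 without the Adipoq libraries, where those against control were 3654 and 3297 in place of 8585 and 7888. With library totals in place of TMM, 3736 genes were higher and 4882 lower in bleomycin vehicle against control, in place of 4381 and 4204, 369 and 813 in nintedanib against vehicle, in place of 476 and 608, and 3250 and 4844 in nintedanib against control, in place of 4171 and 3717. No paired analysis was possible because the labels give library names and no replicate numbers shared between groups. Depth limits Ltc4s and Alox15 most, at 13 to 63 and 5 to 182 counts per library.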
